A study of Mus musculus with 10 samples.

Results

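Imprinted genes are expressed mainly from the copy inherited from 1 parent, and 42 of them were followed here among the 22552 genes of the deposited table. They were chosen by name from 16 imprinted loci, and all 42 symbols were listed. RNA was sequenced from cerebella of E13.5 mouse embryos on a mixed background of C57BL/6 and 129, with 4 Ezh2 deletion libraries and 4 wild type libraries. In the deletion embryos a floxed Ezh2 allele was cut by Cre expressed from Pax7, so Ezh2 was lost in the cells in which that driver had been active, and a Rosa-YFP allele was bred in to guide dissection. Whether the wild type embryos carried the floxed, Cre or YFP alleles, and whether each library came from a separate embryo, is not given in the sources used here. The p-values therefore measure the spread between libraries, which may be partly technical. The series also has ChIP-seq for H3K27me3, with 1 sample of each genotype, which is not used here.

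At most imprinted loci, imprinting rests on DNA methylation that is set differently in eggs and sperm at a control region, which then steers several neighbouring genes. Ezh2 is the catalytic subunit of PRC2, the Polycomb complex that methylates lysine 27 of histone H3 at silent genes. In mouse placenta PRC2 takes part in silencing the paternal copies of genes in the Kcnq1 locus, and in embryonic brain many imprinted genes are expressed strongly. The libraries give the summed RNA of both alleles, so a change of level does not show which allele it came from.

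Expression was given as RPKM, reads scaled to gene length and library size, so levels of different genes can be compared per length. The deleted gene Ezh2 was at 53.8, 48.7, 51.1 and 64.4 RPKM in Ezh2 deletion 1 to 4, against 73.6, 84.7, 78.2 and 78.2 RPKM in wild type 1 to 4. All deletion libraries were below wild type, Ezh2 deletion 4 by the least (log2 difference -0.53, SE 0.084, limma adjusted p = 0.00737), and in Ezh2 deletion 4 alone against wild type the difference was -0.29 (limma adjusted p = 0.146). Total depth is unknown, but the step of 1 read in low genes put relative depth between 1.25 and 2.11 in the deletion libraries and between 1 and 1.35 in wild type, with wild type 1 taken as 1. Ezh2 deletion 1, 2 and 3 held Xist RNA, at 54.1 to 94.5 RPKM, while Ezh2 deletion 4 and all wild type libraries held Y-linked RNA, so the genotypes also differ in sex. Ezh2 deletion 2 stood apart in markers of choroid plexus and mesenchyme, given below beside Igf2. All 9 cerebellar marker genes were above 2 RPKM in every library, and their summed level was 510 to 528 RPKM in Ezh2 deletion and 446 to 572 RPKM in wild type. Single markers moved in opposite directions, with 6 log2 differences positive and 3 negative. Without correction 6 had limma p under 0.05. Means in Ezh2 deletion and wild type were 59.2 and 42.9 RPKM for En1, 2.94 and 4.35 RPKM for Ptf1a, and 63.5 and 81.6 RPKM for Lhx1. Of these 9, 1 was called, Pax2, a marker of inhibitory interneuron precursors, which was higher in Ezh2 deletion, at 15.3, 16.7, 17.3 and 13.9 RPKM in Ezh2 deletion 1 to 4, against 8.84, 7.30, 8.03 and 8.56 RPKM in wild type 1 to 4.

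Of the 36 genes tested among the 42 imprinted genes, Plagl1 and Dlk1 were called higher in Ezh2 deletion and 0 lower. Genes whose mean over the libraries reached 0.25 RPKM were tested on log2(RPKM + 0.25) with limma over the whole table, and a call means a Benjamini-Hochberg adjusted p under 0.05. In all, 36 imprinted genes passed that filter, 2 were called higher and 0 lower, or 5.56%, against 3.45% of all 14279 genes tested (2.71% higher and 0.742% lower). Their median log2 difference was 0.022, against -0.012 for all tested genes. In 28 of the 34 genes tested and not called, the log2 difference lay within 0.2 of 0. Without correction 10 imprinted genes had p under 0.05, or 27.8% of those tested, against 17.7% of all genes. The 4 deletion libraries stood apart from the 4 wild type libraries in 5 of the 36 (Plagl1, Dlk1 and Peg10 above, Dio3 and Mkrn3 below), or 13.9%, against 12.4% of all tested genes (6.79% above and 5.61% below). The share called and the share without overlap are thus near those of all genes.

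**Figure D1:**
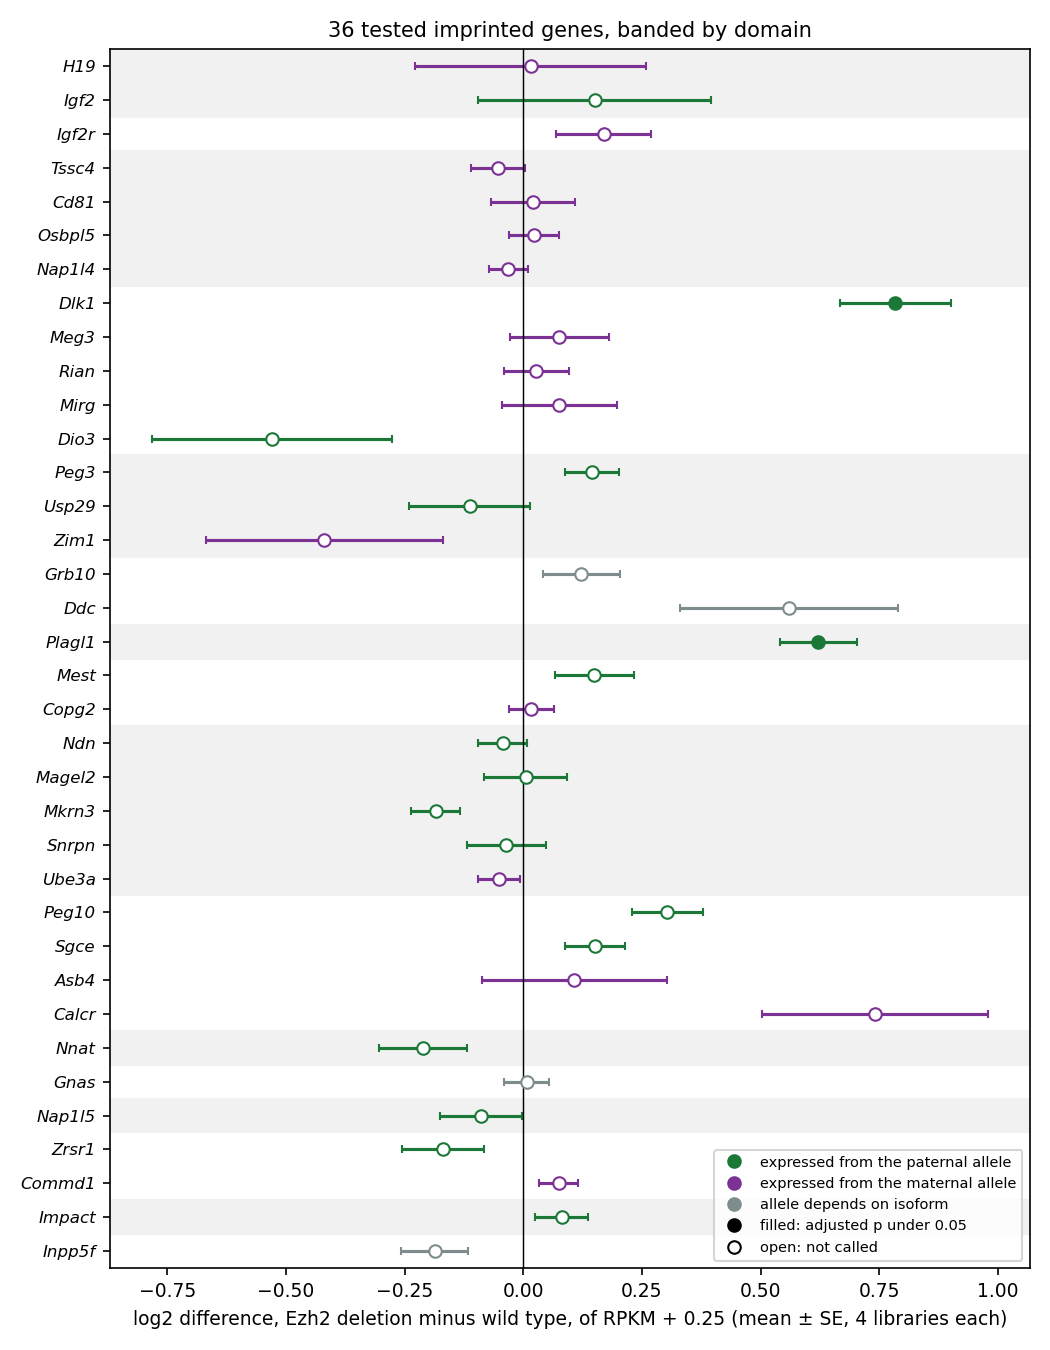
Log2 difference of Ezh2 deletion minus wild type for the 36 tested imprinted genes, on the scale of log2(RPKM + 0.25), as mean ± SE from limma with 4 libraries each. Filled points are Plagl1 and Dlk1, the called genes, at 0.62 and 0.78. Bands separate the loci, and colour gives the parental allele assigned to each gene, which was not measured here and can differ between tissues.

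The RefSeq windows before the transcription start of the 2 called genes, and of Dio3, which lies at the other end of the same locus as Dlk1, are shown for their CpG dinucleotides, the sites of DNA methylation. They are the 250 bases 5′ of the start, on the plus strand of GRCm38.p6, at chr10:13090582-13090831 (Plagl1), chr12:109452573-109452822 (Dlk1) and chr12:110278980-110279229 (Dio3), and the deposited values were made on another build, mm9. Capitals mark each CG.
Plagl1: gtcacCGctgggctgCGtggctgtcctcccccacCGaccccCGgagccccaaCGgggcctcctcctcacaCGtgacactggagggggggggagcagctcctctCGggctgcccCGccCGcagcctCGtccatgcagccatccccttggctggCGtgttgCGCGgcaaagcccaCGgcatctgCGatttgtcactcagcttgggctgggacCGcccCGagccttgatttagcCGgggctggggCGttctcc
Dlk1: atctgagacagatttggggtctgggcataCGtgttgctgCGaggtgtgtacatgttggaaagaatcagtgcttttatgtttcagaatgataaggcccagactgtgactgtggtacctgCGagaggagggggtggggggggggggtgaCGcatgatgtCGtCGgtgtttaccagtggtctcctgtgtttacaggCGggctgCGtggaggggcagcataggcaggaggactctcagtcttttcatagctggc
Dio3: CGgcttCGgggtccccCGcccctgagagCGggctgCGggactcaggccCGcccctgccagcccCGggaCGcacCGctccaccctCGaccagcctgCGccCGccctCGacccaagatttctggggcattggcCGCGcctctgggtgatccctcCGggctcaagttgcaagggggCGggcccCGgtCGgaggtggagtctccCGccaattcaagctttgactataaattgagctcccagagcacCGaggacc
These windows held 19 CG in Plagl1, 8 in Dlk1 and 21 in Dio3. The share of all 32851 such windows with at least as many was 19.7% for Plagl1, 43.0% for Dlk1 and 16.3% for Dio3. The called genes thus differ in CpG content, and Dio3, which was not called, is close to Plagl1. Windows were found for 35 of the 42 imprinted genes, 54 in all, with a median of 10 CG against 6 over all windows. The palindrome GGGGCCCC, a sequence that the Plagl1 protein can bind, was in 1 of the 54 (that of Peg3), and in 0.889% of all windows.

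Plagl1 encodes a zinc finger transcription factor that slows proliferation and, in mouse, regulates a network of other imprinted genes. Its level was 25.4, 23.7, 21.4 and 22.4 RPKM in Ezh2 deletion 1 to 4, against 15.1, 17.3, 14.0 and 13.8 RPKM in wild type 1 to 4. Every deletion library lay above every wild type library, with means of 23.2 ± 1.73 RPKM in Ezh2 deletion and 15.0 ± 1.61 RPKM in wild type (SD, n = 4 each). This came to 0.62 on the log2 scale (SE 0.081, limma adjusted p = 0.00264), a mean level 154% of wild type. In bulk tissue, more RNA per cell and more cells that express the gene cannot be told apart. The 3 measured genes on either side of Plagl1 in RefSeq order did not share the call. Of these 6, 5 were tested and 0 called, with log2 differences from -0.30 (Stx11) to 0.38 (Phactr2), and its direct neighbours Sf3b5 and Ltv1 had 0.00072 and 0.13.

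Dlk1, at one end of the Dlk1-Dio3 locus on chromosome 12, encodes a membrane protein with EGF-like repeats that holds precursor cells back from differentiation. It stood at 24.9, 18.2, 22.5 and 20.1 RPKM in Ezh2 deletion 1 to 4, against 11.6, 11.6, 11.1 and 15.1 RPKM in wild type 1 to 4. The deletion libraries were all above the wild type libraries, of which wild type 4 was the highest, and the means were 21.4 ± 2.93 RPKM in Ezh2 deletion and 12.3 ± 1.84 RPKM in wild type (SD, n = 4 each). The difference on the log2 scale was 0.78 (SE 0.12, limma adjusted p = 0.00619), a mean level 174% of wild type. In Ezh2 deletion 4 alone against wild type, within the libraries with Y-linked RNA, neither gene was called. The log2 differences were 0.70 (SE 0.17, limma adjusted p = 0.0979) for Dlk1 and 0.57 (SE 0.13, limma adjusted p = 0.0899) for Plagl1, in a fit that takes its spread from wild type. Both genes were called with any 1 library left out, Dlk1 with limma adjusted p between 0.00253 and 0.0297 and Plagl1 between 0.00141 and 0.0119. The 3 measured genes on either side of Dlk1 in RefSeq order included Meg3 and Rtl1 of the same locus. Of these 6, 4 were tested and 0 called, with log2 differences from -0.0099 to 0.13.

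The other genes of the Dlk1-Dio3 locus were not called. Meg3, a noncoding RNA expressed from the maternal copy, was at 73.4, 81.1, 108 and 80.7 RPKM in Ezh2 deletion 1 to 4, against 82.6, 77.7, 82.9 and 79.2 RPKM in wild type 1 to 4. Ezh2 deletion 3 was the highest and the groups overlapped (log2 difference 0.076, limma adjusted p = 0.750). Rian, a noncoding RNA that hosts small nucleolar RNAs and microRNAs, was at 65.1, 75.0, 75.4 and 65.2 RPKM in Ezh2 deletion 1 to 4, against 72.3, 68.5, 63.1 and 71.1 RPKM in wild type 1 to 4. These overlapped as well, with a log2 difference of 0.027 (limma adjusted p = 0.875). Mirg, a host of microRNAs, averaged 3.15 ± 0.125 RPKM in Ezh2 deletion and 3.01 ± 0.534 RPKM in wild type (SD, n = 4 each; log2 difference 0.076). Rtl1, derived from a retrotransposon and required in placenta, was below the level filter, between 0.128 and 0.288 RPKM in Ezh2 deletion and 0.132 and 0.273 RPKM in wild type. RefSeq places Rtl1 over parts of both Meg3 and Rian, so with strand use not given the reads of these genes are uncertain.

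Dio3, at the far end of the locus, encodes the deiodinase that inactivates thyroid hormone, and like Dlk1 it is expressed mainly from the paternal copy. It was at 1.89, 1.85, 1.73 and 0.690 RPKM in Ezh2 deletion 1 to 4, against 2.28, 2.03, 1.95 and 2.61 RPKM in wild type 1 to 4. The deletion libraries were all below wild type, with Ezh2 deletion 4 far below the other 3, and the difference was not called (log2 difference -0.53, SE 0.25, limma adjusted p = 0.317). In Ezh2 deletion 4 alone against wild type it was -1.39, which is the deviation of 1 library. Without Ezh2 deletion 4 it was -0.24 (limma adjusted p = 0.378).

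**Figure D2:**
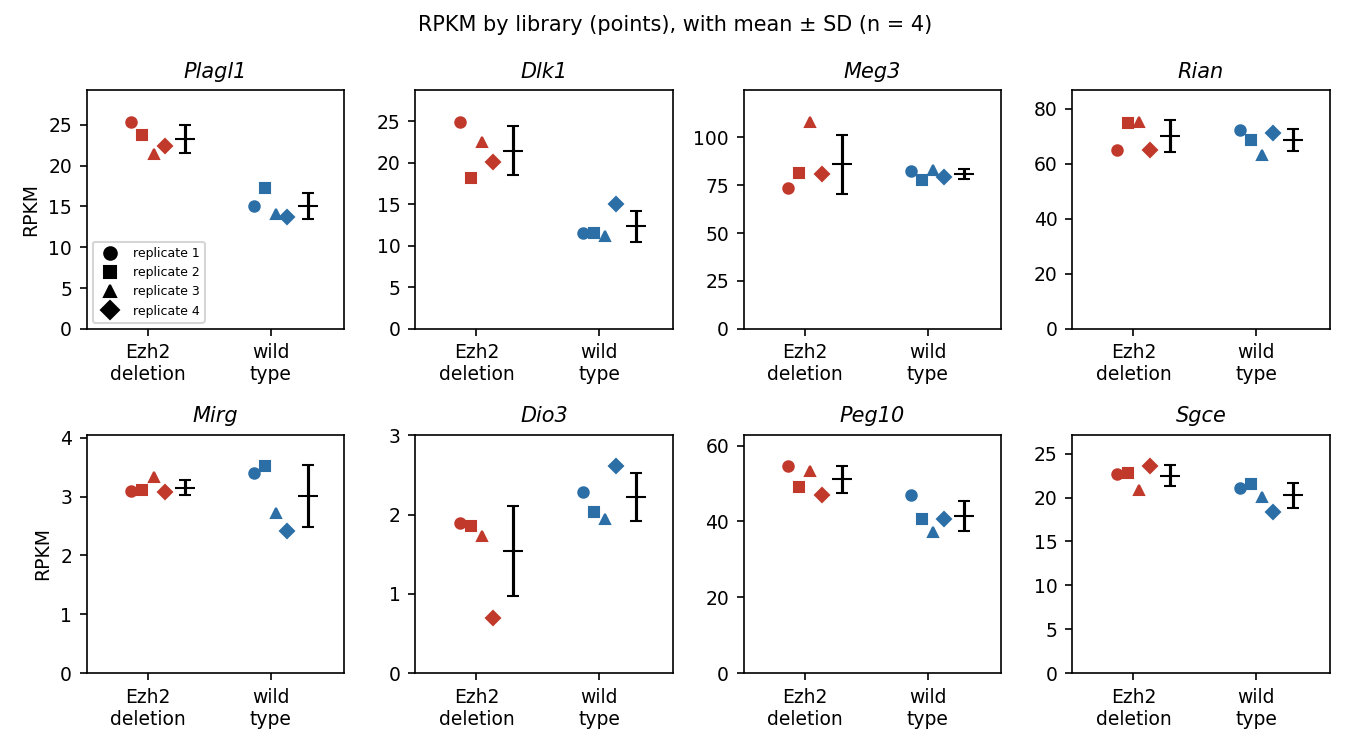
RPKM of Plagl1, of 5 genes of the Dlk1-Dio3 locus and of the neighbours Peg10 and Sgce in each library, with the mean ± SD (n = 4) beside the points and Ezh2 deletion left of wild type. Plagl1, Dlk1 and Peg10 lie above wild type in all 4 deletion libraries and Dio3 below, while Meg3, Rian, Mirg and Sgce overlap.

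To compare genes within a locus, the log2 ratio of RPKM + 0.25 was taken in each library for 18 gene pairs and compared by an exact two-sided permutation test over 70 arrangements, which cannot give a p below 0.0286. Dlk1 against Meg3, expressed from opposite alleles, had log2 ratios of -1.55, -2.14, -2.25 and -1.99 in Ezh2 deletion 1 to 4, against -2.81, -2.72, -2.87 and -2.37 in wild type 1 to 4. The ratio was higher in all deletion libraries than in all wild type libraries, by 0.71 on average (exact permutation p = 0.0286, and 0.257 adjusted over the 18 pairs). Dlk1 against Dio3, expressed from the same allele, had log2 ratios of 3.56, 3.13, 3.52 and 4.43 in Ezh2 deletion 1 to 4, against 2.22, 2.38, 2.37 and 2.42 in wild type 1 to 4. These too stood apart, by 1.31 on average, with the same exact permutation p and adjusted p. That separation was fixed in advance, since Dlk1 lay above and Dio3 below wild type in every deletion library. The shift against Meg3 also follows Dlk1, whose own log2 difference was 0.78, against 0.076 for Meg3. Both pairs thus largely restate the values of the single genes. In the other 16 pairs the groups overlapped. Meg3 against Rian moved by 0.048 (exact permutation p = 0.686), and no pair passed after adjustment.

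**Figure D3:**
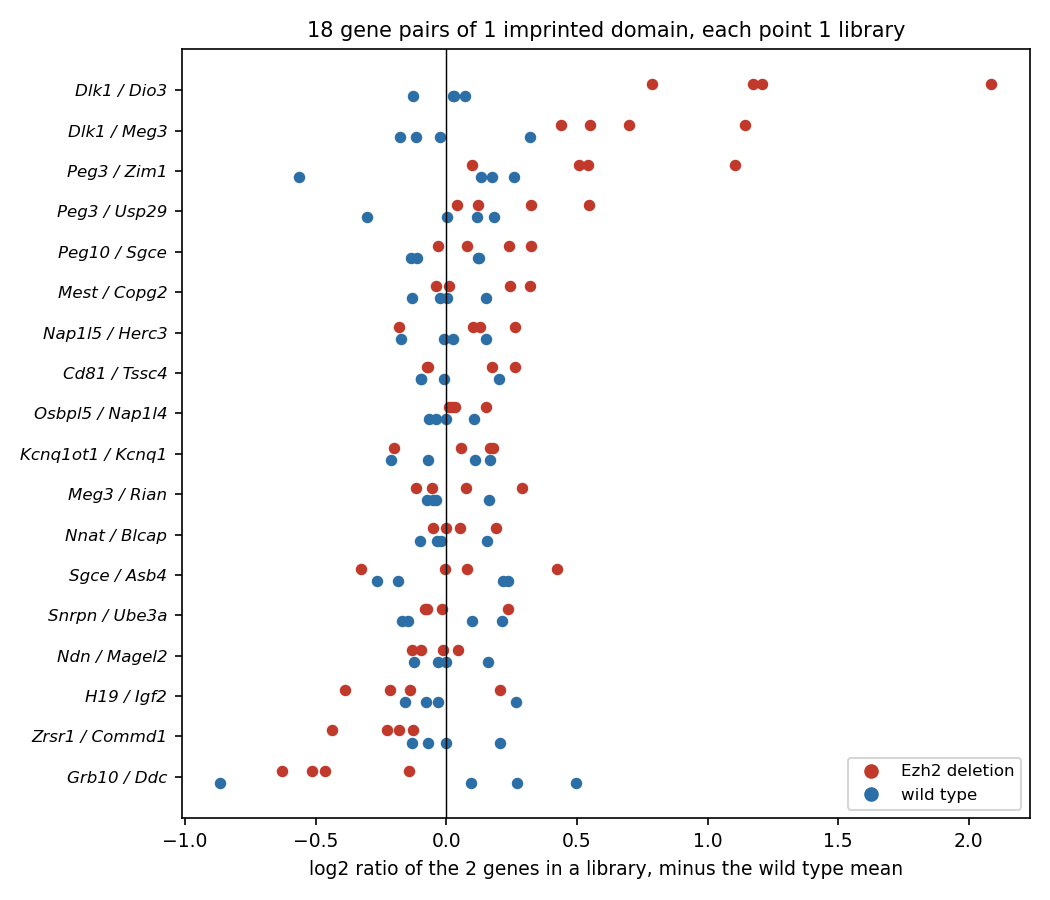
Log2 ratio of 2 genes of 1 imprinted locus in each library, minus the wild type mean of that pair, for 18 pairs, with Ezh2 deletion in red and wild type in blue. The 4 deletion libraries are clear of wild type in Dlk1 against Dio3 and Dlk1 against Meg3 and overlap with it in the other 16 pairs.

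Peg10 and Sgce start back to back on chromosome 6. Peg10, a gene derived from a retrotransposon, was at 54.6, 49.2, 53.4 and 47.1 RPKM in Ezh2 deletion 1 to 4, against 46.9, 40.7, 37.2 and 40.7 RPKM in wild type 1 to 4. All deletion libraries lay above all wild type libraries, Ezh2 deletion 4 by the least, and the difference did not pass (log2 difference 0.30, SE 0.076, limma adjusted p = 0.0622). Without wild type 1, the highest wild type library, it was 0.37 and was called (limma adjusted p = 0.0207). Sgce, which encodes epsilon-sarcoglycan of the cell membrane, was at 22.7, 22.8, 20.8 and 23.6 RPKM in Ezh2 deletion 1 to 4, against 21.1, 21.5, 20.1 and 18.3 RPKM in wild type 1 to 4. The groups overlapped (log2 difference 0.15, limma adjusted p = 0.2497).

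Asb4 and Calcr lie farther out in the same region and are expressed from the maternal copy. Asb4, a subunit of a ubiquitin ligase, stood at 7.11, 9.01, 6.16 and 5.45 RPKM in Ezh2 deletion 1 to 4, against 7.94, 7.70, 5.29 and 4.87 RPKM in wild type 1 to 4. The libraries of both genotypes spread widely (log2 difference 0.11), and the difference turned to -0.023 without Ezh2 deletion 2 and -0.011 without wild type 4. Calcr, the calcitonin receptor, was at 3.05, 2.70, 2.79 and 2.69 RPKM in Ezh2 deletion 1 to 4, against 2.84, 1.54, 0.967 and 1.41 RPKM in wild type 1 to 4. All but wild type 1 of the wild type libraries lay below the deletion libraries, and the difference of 0.74 was not called with it (SE 0.24, limma adjusted p = 0.141) and was called without it (log2 difference 0.99, limma adjusted p = 0.00765).

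The Kcnq1 locus on chromosome 7 held 9 of the genes, and 0 of its 4 tested members were called. Kcnq1ot1, the noncoding RNA that silences neighbours on the paternal copy, was under 0.25 RPKM in all 8 libraries, as were Ascl2, a transcription factor of trophoblast, and Slc22a18, a membrane transporter. Kcnq1 itself, a potassium channel, was between 0.203 and 0.274 RPKM in Ezh2 deletion and 0.151 and 0.384 RPKM in wild type, and Kcnq1ot1 lies within it. Phlda2, which limits growth of the placenta, was also below the level filter, at 0.339, 0.251, 0.243 and 0.314 RPKM in Ezh2 deletion 1 to 4, against 0, 0.121, 0.0692 and 0.0563 RPKM in wild type 1 to 4. The deletion libraries were all above wild type, at levels that rest on few reads. In the fit with no level filter Phlda2 was called (log2 difference 0.80, SE 0.12, limma adjusted p = 0.0109). Its neighbour Cdkn1c, an imprinted inhibitor of the cell cycle, was at 310.5, 196, 234 and 354 RPKM in Ezh2 deletion 1 to 4, against 175, 223, 247 and 249 RPKM in wild type 1 to 4. These overlapped (log2 difference 0.27, limma adjusted p = 0.544).

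The 4 tested genes of the Kcnq1 locus overlapped between genotypes. Nap1l4, a histone chaperone, was at 191, 189, 180.1 and 194 RPKM in Ezh2 deletion 1 to 4, against 196, 193, 188 and 194 RPKM in wild type 1 to 4. Cd81, a tetraspanin of the cell surface, was at 56.1, 63.2, 60.0 and 54.5 RPKM in Ezh2 deletion 1 to 4, against 67.0, 59.9, 50.0 and 54.7 RPKM in wild type 1 to 4. Tssc4, a factor of spliceosome assembly, was at 28.9, 25.7, 26.0 and 28.0 RPKM in Ezh2 deletion 1 to 4, against 28.5, 29.5, 26.1 and 28.6 RPKM in wild type 1 to 4. These 3 are expressed in many tissues. Osbpl5, a lipid transfer protein, was at 15.0, 14.9, 15.4 and 15.1 RPKM in Ezh2 deletion 1 to 4, against 14.7, 14.2, 14.5 and 16.1 RPKM in wild type 1 to 4. Their log2 differences lay between -0.054 (Tssc4) and 0.023 (Osbpl5), none with limma adjusted p below 0.676.

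H19 and Igf2 share 1 control region. Igf2, a fetal growth factor expressed from the paternal copy in most tissues, was at 14.6, 29.2, 17.7 and 14.6 RPKM in Ezh2 deletion 1 to 4, against 15.0, 21.2, 13.2 and 17.2 RPKM in wild type 1 to 4. H19, a noncoding RNA of the maternal copy, was at 29.7, 44.2, 23.9 and 23.4 RPKM in Ezh2 deletion 1 to 4, against 32.0, 35.3, 20.9 and 29.6 RPKM in wild type 1 to 4. In both genes Ezh2 deletion 2 was the highest deletion library and wild type 2 the highest wild type library, and the groups overlapped (log2 difference 0.15, limma adjusted p = 0.799 for Igf2, and 0.016, limma adjusted p = 0.982 for H19). Without Ezh2 deletion 2 both log2 differences were negative, at -0.074 for Igf2 and -0.18 for H19, and neither was called (limma adjusted p = 0.839 and 0.632). Without wild type 3 that of H19 was also negative, at -0.14. The log2 ratio of H19 to Igf2 averaged 0.67 ± 0.25 in Ezh2 deletion and 0.81 ± 0.19 in wild type (SD, n = 4 each; exact permutation p = 0.40, adjusted p over the 18 pairs = 0.698).

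The same libraries were highest in markers of meninges and mesenchyme. The summed level of these 8 genes was 5.30, 21.1, 4.68 and 4.46 RPKM in Ezh2 deletion 1 to 4, against 4.57, 7.81, 3.88 and 3.07 RPKM in wild type 1 to 4. For 4 choroid plexus genes it was 17.0, 157, 0.980 and 0.960 RPKM in Ezh2 deletion 1 to 4, against 1.41, 5.68, 0.422 and 1.57 RPKM in wild type 1 to 4. Ttr, the transthyretin gene, made up most of the sum in Ezh2 deletion 2, at 152 RPKM. The part of these cells in the levels of Igf2 and H19 was not tested, and without Ezh2 deletion 2 the calls among imprinted genes were again Dlk1 and Plagl1.

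**Figure D4:**
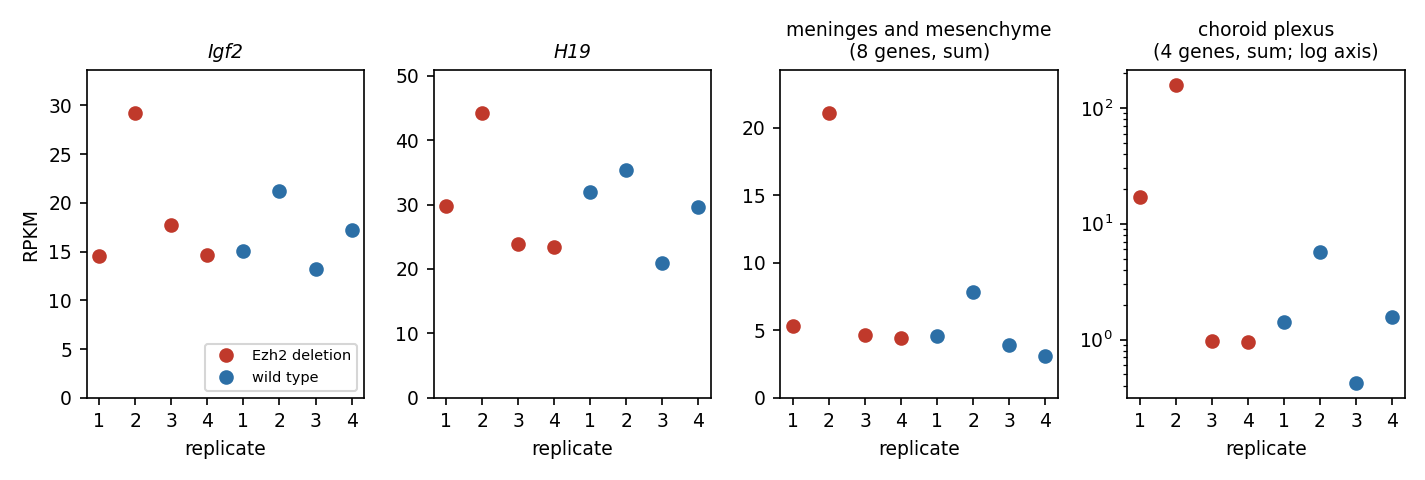
RPKM of Igf2 and H19, and the summed RPKM of 8 genes of meninges and mesenchyme and of 4 genes of choroid plexus (log axis), by library, with Ezh2 deletion left of wild type. Replicate 2 is highest of its genotype in all 4 panels, at 29.2 RPKM in Ezh2 deletion and 21.2 RPKM in wild type for Igf2.

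Igf2r, the receptor that clears Igf2 and is expressed from the maternal copy outside neurons, averaged 13.4 ± 0.660 RPKM in Ezh2 deletion and 12.0 ± 1.80 RPKM in wild type (SD, n = 4 each; log2 difference 0.17, limma adjusted p = 0.416). Of 12 other genes of insulin-like growth factor signalling, such as Igf1r and the binding proteins, 12 were tested and 0 called, with a median log2 difference of 0.15 against -0.012 for all tested genes. The 2 with every deletion library above wild type were Igfbp2, at 129, 166, 122 and 133 RPKM in Ezh2 deletion 1 to 4, against 111, 112, 107 and 103 RPKM in wild type 1 to 4, and Igfbp4, at 33.8, 39.2, 38.3 and 45.6 RPKM in Ezh2 deletion 1 to 4, against 27.2, 32.6, 31.3 and 31.3 RPKM in wild type 1 to 4. Neither passed (limma adjusted p = 0.0752 and 0.0692). Over all tested genes, 6.79% had every deletion library above wild type. Igfbp2 was highest in Ezh2 deletion 2, the library that stood apart in markers of choroid plexus and mesenchyme, and Igfbp4 in Ezh2 deletion 4.

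Mest, a paternally expressed gene for a hydrolase-like protein, was at 99.3, 102, 86.4 and 84.4 RPKM in Ezh2 deletion 1 to 4, against 73.0, 89.9, 86.6 and 85.3 RPKM in wild type 1 to 4. Copg2, which overlaps Mest and encodes a coatomer subunit, was at 36.8, 35.8, 37.6 and 38.1 RPKM in Ezh2 deletion 1 to 4, against 35.1, 35.5, 38.6 and 37.3 RPKM in wild type 1 to 4. Neither was called, with log2 differences of 0.15 and 0.017 and overlapping groups.

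The Prader-Willi and Angelman locus on chromosome 7 holds genes tied to those human syndromes, and 0 of its 5 genes were called. Ndn, a MAGE family protein of young neurons, was at 576, 515, 522 and 508 RPKM in Ezh2 deletion 1 to 4, against 540.5, 553, 530.5 and 560.1 RPKM in wild type 1 to 4. Magel2, of the same family, was at 12.5, 9.89, 11.1 and 10.1 RPKM in Ezh2 deletion 1 to 4, against 9.58, 11.2, 11.5 and 11.1 RPKM in wild type 1 to 4. Snrpn, a splicing protein, was at 22.5, 20.7, 25.1 and 21.7 RPKM in Ezh2 deletion 1 to 4, against 24.1, 21.4, 20.9 and 26.0 RPKM in wild type 1 to 4. Snrpn overlaps Snurf, made from the same transcript, which was at 115, 125, 110.1 and 104 RPKM in Ezh2 deletion 1 to 4, against 147, 129, 121 and 129.5 RPKM in wild type 1 to 4. Snurf was not called (log2 difference -0.21, limma adjusted p = 0.156), and how reads were split between Snrpn and Snurf is uncertain. Groups overlapped in these 4 genes, and likewise in Ube3a, the ubiquitin ligase expressed from the maternal copy in neurons. Ube3a was at 37.9, 36.5, 35.4 and 38.1 RPKM in Ezh2 deletion 1 to 4, against 37.5, 39.4, 39.0 and 37.3 RPKM in wild type 1 to 4. Mkrn3, a ring finger protein, was at 9.19, 9.38, 9.10 and 8.999 RPKM in Ezh2 deletion 1 to 4, against 10.2, 10.3, 10.3 and 10.99 RPKM in wild type 1 to 4. Its deletion libraries were all slightly below wild type, with means of 9.17 ± 0.161 RPKM in Ezh2 deletion and 10.5 ± 0.358 RPKM in wild type (SD, n = 4 each), and the difference did not pass (log2 difference -0.18, SE 0.052, limma adjusted p = 0.0938).

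At the Peg3 locus 0 of 3 genes were called. Peg3, a large zinc finger protein, was at 31.6, 36.4, 36.5 and 33.3 RPKM in Ezh2 deletion 1 to 4, against 30.4, 30.5, 32.7 and 30.9 RPKM in wild type 1 to 4. Usp29, a deubiquitinase transcribed away from Peg3, was at 14.5, 15.8, 13.7 and 10.7 RPKM in Ezh2 deletion 1 to 4, against 17.7, 14.3, 13.6 and 13.4 RPKM in wild type 1 to 4. Zim1, a zinc finger gene of the maternal copy, was at 1.57, 2.60, 1.90 and 1.05 RPKM in Ezh2 deletion 1 to 4, against 3.53, 2.09, 2.05 and 2.05 RPKM in wild type 1 to 4. Peg3 had a log2 difference of 0.14 (limma adjusted p = 0.223), Usp29 of -0.11 and Zim1 of -0.42 (limma adjusted p = 0.416). Without wild type 1 the log2 difference was -0.24 for Zim1 and -0.023 for Usp29, and without Ezh2 deletion 4 it was -0.22 for Zim1 and -0.0021 for Usp29. Wild type 1 was the highest wild type library in Zim1 and Usp29 and the lowest in Peg3, by a narrow margin there.

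Grb10, an adaptor that restrains insulin and IGF receptors and is expressed from different alleles in neurons and other cells, was at 71.9, 65.8, 67.2 and 79.8 RPKM in Ezh2 deletion 1 to 4, against 58.9, 72.1, 69.0 and 61.6 RPKM in wild type 1 to 4. Ddc, its neighbour, makes dopamine and serotonin and was at 1.18, 1.58, 1.48 and 1.73 RPKM in Ezh2 deletion 1 to 4, against 1.68, 0.826, 0.631 and 0.788 RPKM in wild type 1 to 4. Ddc was not called (log2 difference 0.56, SE 0.23, limma adjusted p = 0.237), but was called without wild type 1, the highest wild type library (log2 difference 0.80, limma adjusted p = 0.0249). Markers of monoaminergic neurons, which use Ddc, had a summed level of 14.9 to 20.8 RPKM in Ezh2 deletion and 10.6 to 13.4 RPKM in wild type, over 8 genes. Th had the highest mean of the 8, at 9.72 RPKM in Ezh2 deletion and 5.95 RPKM in wild type, and was not called. The means were near each other for Slc18a2 (2.20 and 2.23 RPKM) and Dbh (2.79 and 2.74 RPKM), both highest in wild type 1. All 6 tested genes had a positive log2 difference. Of the 6 tested, 1 was called higher, Slc6a4, the serotonin transporter, at 0.619, 0.346, 0.318 and 0.498 RPKM in Ezh2 deletion 1 to 4, against 0.0794, 0.202, 0.188 and 0.0354 RPKM in wild type 1 to 4. Slc6a4 passed the level filter only through its deletion libraries, since the wild type mean was 0.126 RPKM, so its call adds no support. The part of these cells in the level of Ddc was not tested. Fev and Tph2, which define serotonin neurons, were at most 0.159 RPKM in any library.

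Several imprinted genes sit within a larger host gene. Nnat, the neuronatin gene, lies within Blcap and was the sixth most abundant gene of the whole table, at 2512, 2357, 2275 and 2150.4 RPKM in Ezh2 deletion 1 to 4, against 3205, 2499, 2379 and 2732 RPKM in wild type 1 to 4. On the log2 scale it differed by -0.21 (SE 0.092, limma adjusted p = 0.269), and the groups overlapped. Blcap was at 109, 117, 116 and 102 RPKM in Ezh2 deletion 1 to 4, against 142, 126, 126 and 137 RPKM in wild type 1 to 4. Its deletion libraries were all below wild type, just short of a call (log2 difference -0.26, limma adjusted p = 0.0502). The ratio of Nnat to Blcap moved by 0.048 (exact permutation p = 0.514, adjusted p = 0.698).

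Nap1l5, a histone chaperone gene within Herc3, was at 36.5, 32.2, 33.7 and 31.6 RPKM in Ezh2 deletion 1 to 4, against 42.2, 34.1, 31.5 and 35.3 RPKM in wild type 1 to 4. Herc3 was at 11.1, 12.1, 10.4 and 8.69 RPKM in Ezh2 deletion 1 to 4, against 12.6, 11.4, 11.8 and 11.5 RPKM in wild type 1 to 4. Both overlapped between genotypes and neither was called (log2 differences -0.089 and -0.17). Zrsr1, a splicing factor gene within Commd1, was at 6.06, 6.17, 5.80 and 5.25 RPKM in Ezh2 deletion 1 to 4, against 7.48, 6.46, 5.86 and 6.56 RPKM in wild type 1 to 4. Commd1, a regulator of copper transport, was at 64.8, 63.6, 64.2 and 67.5 RPKM in Ezh2 deletion 1 to 4, against 60.7, 63.7, 60.6 and 61.7 RPKM in wild type 1 to 4. Zrsr1 was -0.17 and Commd1 0.075 on the scale of log2 difference, neither called, and their ratio moved by -0.24 (exact permutation p = 0.0571, adjusted p = 0.343). Reads shared between a nested gene and its host are uncertain, since the handling of strand is not given.

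Gnas, the stimulatory G protein subunit whose transcripts differ in parental origin, was at 1094, 1017, 1055 and 1035 RPKM in Ezh2 deletion 1 to 4, against 1015, 1012, 1064 and 1091 RPKM in wild type 1 to 4. It is the twentieth most abundant gene of the table, and its log2 difference was 0.0068. Impact, a regulator of translation, averaged 12.0 ± 0.575 RPKM in Ezh2 deletion and 11.3 ± 0.434 RPKM in wild type (SD, n = 4 each), with overlapping libraries. Inpp5f, a phosphoinositide phosphatase of which 1 isoform is imprinted, averaged 72.7 ± 7.19 RPKM in Ezh2 deletion and 82.5 ± 3.44 RPKM in wild type (SD, n = 4 each; log2 difference -0.19, limma adjusted p = 0.207).

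By parental origin, 17 of 19 genes expressed from the paternal copy were tested, with 2 called higher, 0 lower and a median log2 difference of 0.0049. Of the 19 expressed from the maternal copy 15 were tested, with 0 called and a median of 0.023. The other 4 genes, whose origin depends on the isoform or tissue, had 0 called. Over all tested genes 3.45% were called, with a median of -0.012. The 2 called genes are thus both in the paternal class, and whether the classes differ was not tested. The classes were assigned to each gene beforehand, and the allele used in these cerebella was not measured. For some genes, such as Igf2r and Ube3a, it differs between neurons and other cells.

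Mean levels of a genotype ranged from 0.0494 RPKM, for Slc22a18 in wild type, to 2704 RPKM, for Nnat in wild type. The mean over all 8 libraries was at least 100 RPKM in 4 genes (Nnat, Gnas, Ndn and Nap1l4), at least 10 RPKM in 28, from 1 to 10 RPKM in 8, and under 0.25 RPKM in 6. The coefficient of variation between libraries had a median of 6.94% in Ezh2 deletion and 9.61% in wild type over the 36 tested genes, against 8.80% and 7.77% over all tested genes. Among the tested imprinted genes, Ddc and Calcr varied most in wild type, at 48.4% and 47.7%, both with wild type 1 as the highest library. Dio3, Igf2 and Zim1 varied most in Ezh2 deletion, at 37.1%, 36.5% and 36.4%.

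A further list held 39 imprinted genes that are not among the 42, of which 37 symbols were in the table and 28 were tested. Kcnk9 and Zdbf2 were called higher and 0 lower, or 7.14% of those tested, against 3.45% of all genes, and the median log2 difference was 0.034. Kcnk9, a potassium channel expressed from the maternal copy in brain, was at 10.6, 11.1, 10.6 and 7.40 RPKM in Ezh2 deletion 1 to 4, against 5.99, 5.18, 5.06 and 6.33 RPKM in wild type 1 to 4. The deletion libraries were all above wild type, Ezh2 deletion 4 by the least (log2 difference 0.78, SE 0.13, limma adjusted p = 0.0106). Its imprinted neighbours Peg13 and Trappc9 were not called, with log2 differences of -0.046 and -0.029, while Col22a1, a collagen gene nearby that is not on the list, was called higher, at 0.771, 1.61, 1.11 and 0.997 RPKM in Ezh2 deletion 1 to 4, against 0.334, 0.635, 0.379 and 0.415 RPKM in wild type 1 to 4 (log2 difference 0.98, limma adjusted p = 0.0307). Zdbf2, a paternally expressed gene, was at 12.5, 11.7, 13.53 and 12.3 RPKM in Ezh2 deletion 1 to 4, against 9.43, 8.90, 9.84 and 10.04 RPKM in wild type 1 to 4. There was no overlap between genotypes (log2 difference 0.38, SE 0.064, limma adjusted p = 0.0103). In Ezh2 deletion 4 alone against wild type neither was called (log2 difference 0.38, limma adjusted p = 0.234 for Kcnk9, and 0.36, limma adjusted p = 0.129 for Zdbf2).

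Among 15 genes that keep or read the imprints, such as DNA methyltransferases, 12 were tested and 0 called, with a median log2 difference of -0.0030. Without correction 1 had p under 0.05. That gene, Zfp57, a zinc finger protein that protects imprints, was at 76.6, 74.5, 85.1 and 76.6 RPKM in Ezh2 deletion 1 to 4, against 88.4, 88.1, 102 and 102 RPKM in wild type 1 to 4. All deletion libraries were below wild type, and the difference did not pass (log2 difference -0.28, SE 0.067, limma adjusted p = 0.0560). Ctcf, Trim28 and Dnmt1 had log2 differences of -0.080, 0.069 and -0.0016, none called.

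Marker genes of other cells were summed as well, and 1 of those tested in the lists given here was called. The summed level of 4 midbrain markers was 50.7, 44.7, 59.2 and 73.1 RPKM in Ezh2 deletion 1 to 4, against 33.6, 37.7, 33.6 and 44.8 RPKM in wild type 1 to 4. These sums overlapped by a narrow margin. The called gene was Pou4f1, which was higher in Ezh2 deletion, at 15.7, 14.2, 13.4 and 16.2 RPKM in Ezh2 deletion 1 to 4, against 6.98, 6.56, 6.44 and 7.21 RPKM in wild type 1 to 4. Dmbx1 had the highest mean of the 4, at 26.3 RPKM in Ezh2 deletion and 24.9 RPKM in wild type. Means in Ezh2 deletion and wild type were 13.8 and 5.45 RPKM for Otx2, and 1.97 and 0.268 RPKM for Otx1. The libraries of Dmbx1, Otx2 and Otx1 overlapped between genotypes, and all 4 log2 differences were positive. Endothelial markers, at 51.8 to 76.8 RPKM in Ezh2 deletion and 60.8 to 72.8 RPKM in wild type, and pericyte markers, at 20.9 to 32.7 RPKM in Ezh2 deletion and 27.8 to 36.04 RPKM in wild type, overlapped, with 0 called of 8 and of 5. The erythroid sum was 310 to 671 RPKM in Ezh2 deletion and 367 to 443 RPKM in wild type, with 0 of 7 called. Hbb-y, with a mean of 357 RPKM over all libraries, made up most of it. Hba-a1 was below wild type in every deletion library (means 14.9 RPKM in Ezh2 deletion and 32.3 RPKM in wild type). Hba-a2 was above (means 1.98 and 0.0211 RPKM), but its deletion mean rested on 1 library. It was at 7.67, 0.0345, 0.144 and 0.0899 RPKM in Ezh2 deletion 1 to 4, and passed the level filter only through Ezh2 deletion 1. The microglial sum was 7.33 to 10.4 RPKM in Ezh2 deletion and 5.97 to 7.76 RPKM in wild type, with 0 of 4 called, and skeletal muscle genes summed to at most 0.813 RPKM. The midbrain sum was highest in Ezh2 deletion 4 among deletion libraries. Among wild type libraries it was highest in wild type 4, where Dmbx1 alone was at 33.9 RPKM. Dlk1 and Plagl1 were both highest in Ezh2 deletion 1. Among wild type libraries, wild type 4 was the highest in Dlk1 and the lowest in Plagl1. The part of any of these cells in the rise of Dlk1 and Plagl1 was not tested.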

How the data were processed

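The titles put 4 cerebellar RNA-seq libraries in the Ezh2 deletion group and 4 in the wild type group. The authors deposited 1 table of RPKM values with a column for each library. Bowtie, TopHat, Cuffdiff, SICER and build mm9 are listed, without versions or order, per the submitters' processing notes. For the annotation, multi-mapping reads and strand, the entry is "not given in the sources used here". Because RPKM are normalized, tests for counts were not applied. The table holds 25 gene names that had been turned into dates.

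The 14279 genes with a mean of 0.25 RPKM or more were log2-transformed after adding 0.25 and compared by limma (version 3.58.1, R 4.3.3), using a trended, robust variance prior (statmod 1.5.0). Tests were two-sided, with Benjamini-Hochberg adjustment over all these genes at 0.05. This scale understates the change of low genes. Ratios were compared by exact permutation.

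The imprinted genes, lists, pairs and tests were chosen with earlier results of these data known. Each library's values are given for called genes and for members of a pair with a mean of 1 RPKM or more in either genotype. Other genes named come from the lists, or were chosen after their values were seen. Promoter windows are from RefSeq, GRCm38.p6. Alternatives covered pseudocount, level filter, scaling, library weights, variance prior, replicate block, threshold and libraries left out.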

Additional observations from a re-analysis of the deposited data

Results flagged for a closer look

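In 5 of 84 groups of 4 libraries (42 genes in each genotype), 1 library lay far from the other 3 for its gene by Dixon's test at the 95% level. Chance gives about 1 in 20 such groups. Dio3 was at 0.690 RPKM in Ezh2 deletion 4, against 1.73 to 1.89 RPKM in the other deletion libraries. Mirg was at 3.34 RPKM in Ezh2 deletion 3, against 3.08 to 3.11 RPKM in the others. Dlk1 was at 15.1 RPKM in wild type 4, against 11.1 to 11.6 RPKM in the other wild type libraries. Zim1 was at 3.53 RPKM in wild type 1, against 2.05 to 2.09 RPKM in the others. Mkrn3 was at 10.99 RPKM in wild type 4, against 10.2 to 10.3 RPKM in the others.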

How the results depend on the processing

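Over 20 alternatives, 709 of 720 fits of single imprinted genes kept their direction and side of the threshold, where a change of sign in a gene called in neither fit (37 fits, of 14 genes) was not counted. Dlk1 (log2 difference 0.70 to 0.88) and Plagl1 (0.57 to 0.69) were called in 19 each. The exception was Ezh2 deletion 4 against wild type, with 0 imprinted genes higher, 1 lower (Dio3), and 204 higher genes over the table. With array weights 4 imprinted genes were higher (Calcr and Peg10 added) and 181 genes of the table lower. At a threshold of 0.1, 3 imprinted genes were higher (Peg10 added) and 1 lower (Mkrn3), and 614 genes of the table were higher and 248 lower. Removing erythroid and sex-linked genes and rescaling the rest, which moved the median of all genes from -0.012 to 0.038, gave 479 higher and 55 lower genes in the table, against 387 and 106 in the main analysis, and added Peg10 to the imprinted genes called. The parts of removal and rescaling were not separated. With 1 library left out, 2 to 5 imprinted genes were higher, 0 lower, 218 to 350 genes of the table higher and 40 to 101 lower, and 2 to 4 pairs did not overlap. The 5 came without wild type 1, and the 4 pairs without Ezh2 deletion 2. With quantile normalization 4 pairs did not overlap (Peg3 against Zim1 and Zrsr1 against Commd1 added), and with a pseudocount of 1, 3. The cause of these changes was not tested. Over all tested genes, same-numbered libraries deviated together little (correlations 0.0034 to 0.087). This cannot show whether the numbers pair the libraries or mark a shared batch, which is not given in the sources used here. A replicate block left 2 imprinted genes higher and 53 genes of the table lower, against 106 without it, and Kcnk9 was not called (limma adjusted p = 0.0545). Under that block 300 genes of the table were higher. Total depth is unknown, and the 6 imprinted genes below the level filter, Phlda2 among them, were tested only without that filter.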
